A study of Mus musculus with 26 samples.

Results

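The choroid plexus (ChP), the tissue that secretes cerebrospinal fluid, was compared between mice with a lesion of the suprachiasmatic nuclei (SCNx) and sham-operated mice (Ctrl) in late night. This window holds the libraries of circadian times CT0, CT20, CT24 and CT44, which are 4 Ctrl and 4 SCNx libraries of the 26 samples of the series. All genes with a mean of at least 1 CPM (counts scaled to a common library size) over these 8 libraries were kept, which were 13789 of the 55416 genes listed. CT20 and CT44 lie in the late subjective night, and CT0 and CT24 at subjective dawn, the hour at which lights had come on before.

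Both groups were adult male C57BL/6J mice, and the lesion was bilateral and electrolytic. The lesion was checked by the authors through locomotor activity in constant darkness and through histology. Lights had been on for 12 h a day during the last week, and they stayed off from CT0, so that CT20, CT24 and CT44 were sampled in constant darkness. Every library is the ChP of the 4th ventricle of 1 mouse, taken out with pincers, so each time of a group is a single animal. The spread within a group therefore holds both the difference between mice and that between the hours sampled. Sets of 4 values are given below in the order CT0, CT20, CT24 and CT44. A CPM value is an estimated count scaled to the TMM-adjusted total of its library. Log2 fold changes are SCNx over Ctrl with the standard error of the fit, and adjusted p-values come from the quasi-likelihood F test of edgeR, adjusted after Benjamini and Hochberg over the 13789 genes, with a threshold of 0.05.

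As background, the suprachiasmatic nuclei are the central pacemaker that keeps the clocks of other tissues in phase. In each cell, ARNTL with CLOCK or NPAS2 drives genes such as Per, Cry, Nr1d1 and Dbp through E-boxes, and the products feed back: PER and CRY proteins inhibit ARNTL, and the nuclear receptors NR1D1 and NR1D2 repress Arntl. The ChP epithelium secretes much protein and fluid, so chaperones and folding enzymes of the endoplasmic reticulum (ER) and ion transporters are abundant in it. The question of the comparison is which of these genes differ between the groups around the hours at which ER and heat shock genes are high in Ctrl.

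The libraries held between 38751162 and 47335226 estimated counts, with between 23730 and 25515 genes counted, and the tested genes took at least 99.7% of the counts. Mitochondrial genes took 5.45%, 4.76%, 4.21% and 6.96% of the counts in Ctrl and 6.68%, 6.58%, 6.64% and 6.49% in SCNx, so they were lower in 3 of the 4 Ctrl libraries than in every SCNx library, and the part of this in the differences below was not tested. Markers of ChP epithelium such as Ttr and Kl summed to between 101189 and 105062 CPM in Ctrl and between 89849 and 102391 in SCNx, so the labelled tissue was present in all 8 libraries. Other tissues stood out in single libraries. The hepatocyte markers, Alb among them, summed to 13900 CPM in SCNx CT0 and to at most 11.3 in the other libraries. The red blood cell markers summed to 6552 CPM in SCNx CT44 against at most 997 elsewhere. Markers of oligodendrocytes reached 133 CPM in Ctrl CT44 and 99.4 in SCNx CT44, where the other libraries held at most 67.0. Melanocyte markers, mainly Dct, summed to 88.2 CPM in Ctrl CT0 and 107 in Ctrl CT44 against at most 8.18 elsewhere. No pair of libraries had identical counts.

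At an adjusted p under 0.05, 1 gene differed between SCNx and Ctrl in late night (0.00725% of those tested), and it rose: Nr1d2. At the wider adjusted p under 0.25 that the authors used for their own comparison, 743 genes were lower (5.39%) and 835 higher (6.06%) in SCNx. The groups did not overlap, every SCNx library being under every Ctrl library, for 634 genes (4.60%), and every SCNx library was above every Ctrl library for 486 (3.52%). The median log2 fold change of all tested genes was 0.00666, and 48% were lower in SCNx. At an unadjusted p under 0.05 there were 1032 lower and 1252 higher genes.

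The single call at 0.05 is that of edgeR. DESeq2's Wald test, the method of the authors, called 244 genes lower (1.77%) and 249 higher (1.81%) at 0.05 from the same counts, limma called 2 genes and edgeR with robust shrinkage 2. The count at 0.25 also rested on single libraries. It was 2 without Ctrl CT20, 6 without Ctrl CT24, 24 without SCNx CT24, 82 without SCNx CT44, 399 without Ctrl CT0 and 660 without Ctrl CT44, but 1620 without SCNx CT0 and 2309 without SCNx CT20. Of the genes tested, 351 were under the minimum level once SCNx CT0, with its liver transcripts, was left out, and 201 of these were among the genes with an adjusted p under 0.25. Where "higher" or "lower" is written below, the values stand beside it, and the adjusted p did not pass 0.05 unless "rose" or "fell" is used.

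The gene that rose belongs to the clock list. Of 20 clock genes tested, 6 had every SCNx library above every Ctrl library (3.52% of all genes) and 3 had every SCNx library below (4.60% of all). At an adjusted p under 0.25, 7 were higher and 5 lower (6.06% and 5.39% of all), and DESeq2 called 4 higher and 5 lower at 0.05 (1.81% and 1.77% of all). The calls at 0.25 became 1 higher and 0 lower without Ctrl CT20 or Ctrl CT24, 2 and 0 without SCNx CT24, 3 and 0 without SCNx CT44, 3 and 4 without Ctrl CT0 and 5 and 3 without Ctrl CT44. The genes that were higher include Nr1d1, Nr1d2, Dbp, Tef and Per3, which in Ctrl were lower in this window than in subjective day, and those that were lower include the activators Arntl and Npas2.

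Nr1d2 (ENSMUSG00000021775), the nuclear receptor REV-ERB beta that represses Arntl, had 41.5, 39.1, 37.0 and 38.2 CPM in Ctrl and 109, 109, 115 and 105 CPM in SCNx. The 4 Ctrl values lay within 37.0 to 41.5 CPM and the 4 SCNx values within 105 to 115, without overlap at either phase. It rose in SCNx by 1.49 ± 0.051 on the log2 scale (SE, n = 4 against 4 mice, adjusted p = 1.7e-05, edgeR), from 38.9 ± 1.91 to 109.7 ± 3.87 CPM (SD). The call was kept in each of the 19 alternatives run, with log2 fold changes between 1.468 and 1.525. Nr1d1 (ENSMUSG00000020889), its paralogue REV-ERB alpha, had 10.6, 2.49, 13.3 and 2.53 CPM in Ctrl and 27.5, 16.5, 19.0 and 19.3 CPM in SCNx. Ctrl was low at CT20 and CT44 and higher at CT0 and CT24, while all SCNx libraries were above the highest Ctrl library.

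Dbp (ENSMUSG00000059824), a PAR-bZIP activator of D-box genes, had 8.64, 11.3, 10.2 and 11.5 CPM in Ctrl and 34.7, 17.3, 25.8 and 24.1 CPM in SCNx (log2 fold change 1.29 ± 0.20, adjusted p = 0.0991). All 4 SCNx values were above the Ctrl values, with SCNx CT20 the closest. Per3 (ENSMUSG00000028957), a period gene, had 8.64, 12.8, 8.69 and 11.8 CPM in Ctrl and 27.2, 18.47, 29.8 and 25.7 CPM in SCNx (log2 fold change 1.27 ± 0.18, adjusted p = 0.0979). Tef, a relative of Dbp, had 41.1, 76.9, 39.5 and 70.0 CPM in Ctrl and 109, 79.6, 103 and 94.0 CPM in SCNx, which set CT0 and CT24 of the groups far apart and CT20 and CT44 close together. Rora, a receptor that activates Arntl, was higher by a small step, with 62.2, 60.7, 62.1 and 65.3 CPM in Ctrl and 70.9, 84.6, 77.3 and 69.9 CPM in SCNx.

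Arntl (ENSMUSG00000055116), also called Bmal1, the core activator of the clock, had 39.3, 27.5, 38.9 and 33.3 CPM in Ctrl and 10.2, 20.5, 10.9 and 16.1 CPM in SCNx (log2 fold change -1.27 ± 0.23, adjusted p = 0.136). Every SCNx library was below every Ctrl library, and the distance was widest at CT0 and CT24. Npas2 (ENSMUSG00000026077), its partner, had 26.4, 13.5, 29.2 and 15.8 CPM in Ctrl and 9.62, 12.7, 8.48 and 11.3 CPM in SCNx. It was lower in every SCNx library too, although the Ctrl libraries of CT20 and CT44 came close to SCNx. Nfil3, a repressor that binds the same D-boxes as DBP, had 18.7, 21.7, 17.6 and 24.5 CPM in Ctrl and 13.8, 15.1, 11.1 and 14.6 CPM in SCNx (log2 fold change -0.59 ± 0.13, adjusted p = 0.16). Among the repressors of the feedback loop, Cry1 had 20.2, 33.1, 22.6 and 35.2 CPM in Ctrl and 16.7, 17.8, 17.4 and 21.8 CPM in SCNx. Its SCNx libraries lay near the Ctrl values of CT0 and CT24 and far below those of CT20 and CT44, and the groups overlapped, whereas they did not for Nfil3.

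The difference of Per2 (ENSMUSG00000055866), another period gene, had opposite signs at the phases. It had 18.3, 47.2, 17.1 and 44.1 CPM in Ctrl and 34.01, 25.2, 42.2 and 26.3 CPM in SCNx, with a log2 fold change over all 8 libraries of 0.01 ± 0.36. Ctrl was high at CT20 and CT44 and low at CT0 and CT24, and SCNx was higher at CT0 and CT24 than at CT20 and CT44. The log2 fold change was -0.83 ± 0.11 at CT20 and CT44 and 1.11 ± 0.11 at CT0 and CT24, and the difference of -1.93 ± 0.16 between them had an adjusted p of 0.16 (edgeR, group by phase). Per1, Cry2, Wee1, Bhlhe40 and Clock had log2 fold changes between -0.07 and 0.17, with overlapping groups, and Clock changed sign when SCNx CT0 was left out.

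The difference between the phases passed 0.05 for 0 of 13789 genes (0%, edgeR) and 702 had an unadjusted p under 0.05 (5.09%), while DESeq2 called 143 and limma 1. Leaving out 1 library left 1 mouse at that phase of its group, so no conclusion is drawn from the counts of those fits. Without SCNx CT24 that lone mouse was SCNx CT0, the library with the liver transcripts. Of the 20 clock genes, 12 were at an unadjusted p under 0.05, against 5.09% of all genes. Within CT20 and CT44 (2 mice against 2, 0.0145% of genes past 0.05), Nr1d2 rose by 1.47 ± 0.079 (adjusted p = 0.0101, edgeR) and Nr1d1 by 2.83 ± 0.22 (adjusted p = 0.048). Within CT0 and CT24 (0.0290% of genes past 0.05), Nr1d2 rose by 1.52 ± 0.079 and Tef by 1.39 ± 0.10. Arntl and Npas2 fell there, with log2 fold changes of -1.89 ± 0.14 and -1.62 ± 0.12. The adjusted p (edgeR) was 0.00845 for Nr1d2 and 0.0243 for the other 3.

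**Figure D1:**
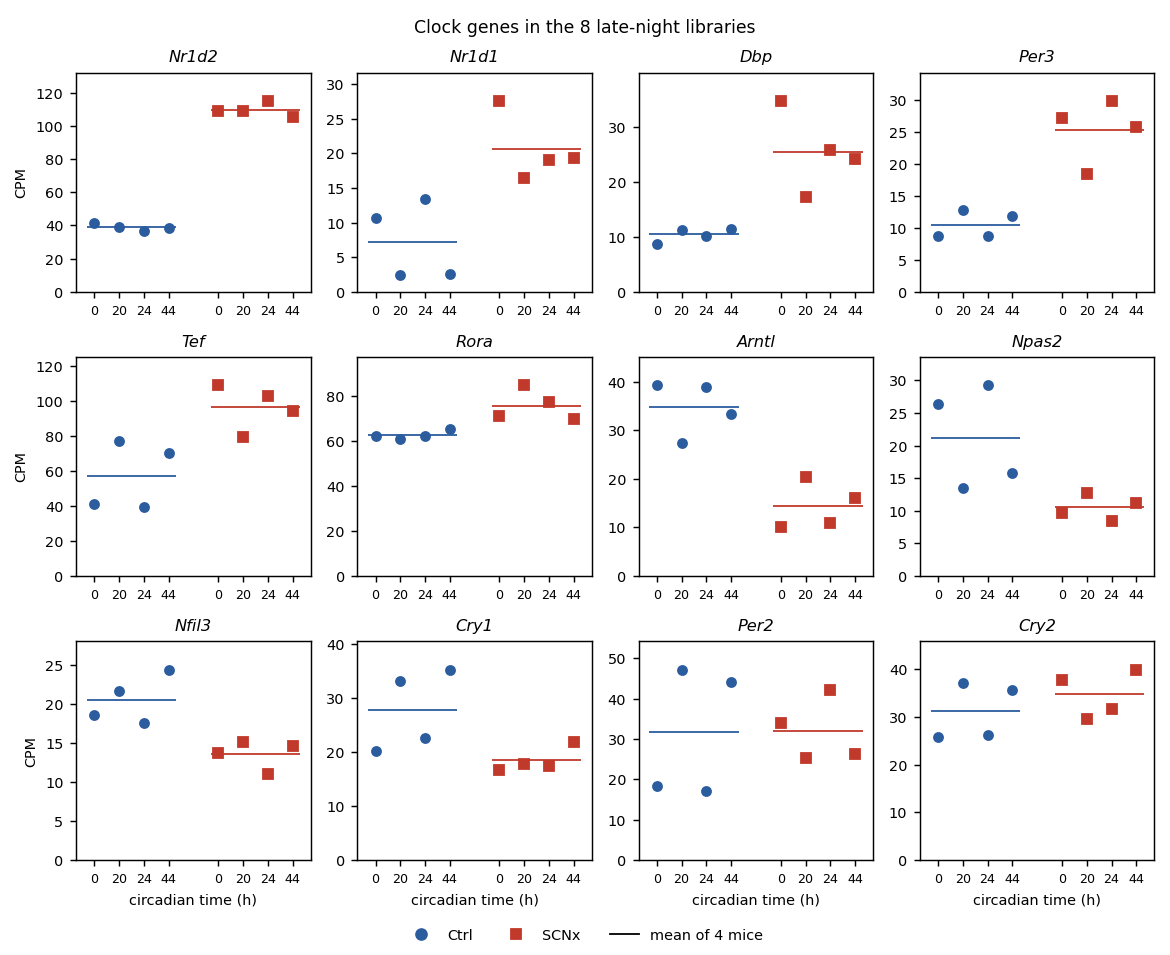
CPM (linear axis from 0) of 12 clock genes in the 8 late-night libraries, by circadian time in h, with Ctrl as blue circles, SCNx as red squares and a line at the mean of 4 mice. Nr1d2 stands near 39 CPM in Ctrl and near 110 in SCNx at all 4 times, whereas Per2 and Tef alternate between CT20 or CT44 and CT0 or CT24 in Ctrl.

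The promoters of 3 clock genes are shown because they hold the elements that NR1D and PAR-bZIP proteins are known to bind, while the window of Nr1d2 held 0 of the motifs searched for. RefSeq promoter windows of 300 bases around the start of transcription, from GRCm38.p6 and thus another build than the counts, matched 16 of the 20 tested clock genes. Capitals mark the motif on either strand, which is the ROR element TAGGTCA in Arntl and Nfil3 and the D-box TTATGTAA in Per3. The ROR element stood in 2.61% of 32851 promoters and in 2 of these 16, and the D-box (TTATGTAA or TTACGTAA) in 1.06% and in 1 of 16. The window of Arntl is chr7:113207261-113207560, plus strand, that of Nfil3 chr13:52980990-52981289, minus strand and that of Per3 chr4:151044616-151044915, minus strand.
Arntl: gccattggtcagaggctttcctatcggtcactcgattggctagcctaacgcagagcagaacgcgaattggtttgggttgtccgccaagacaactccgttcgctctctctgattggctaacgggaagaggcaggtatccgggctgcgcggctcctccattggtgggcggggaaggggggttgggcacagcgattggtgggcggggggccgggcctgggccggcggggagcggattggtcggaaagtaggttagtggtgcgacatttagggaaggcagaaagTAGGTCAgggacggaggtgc
Nfil3: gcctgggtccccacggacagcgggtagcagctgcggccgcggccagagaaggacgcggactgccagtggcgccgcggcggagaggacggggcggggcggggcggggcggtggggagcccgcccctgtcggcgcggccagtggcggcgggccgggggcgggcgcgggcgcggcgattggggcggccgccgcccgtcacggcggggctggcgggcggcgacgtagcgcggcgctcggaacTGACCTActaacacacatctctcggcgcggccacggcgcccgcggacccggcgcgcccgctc
Per3: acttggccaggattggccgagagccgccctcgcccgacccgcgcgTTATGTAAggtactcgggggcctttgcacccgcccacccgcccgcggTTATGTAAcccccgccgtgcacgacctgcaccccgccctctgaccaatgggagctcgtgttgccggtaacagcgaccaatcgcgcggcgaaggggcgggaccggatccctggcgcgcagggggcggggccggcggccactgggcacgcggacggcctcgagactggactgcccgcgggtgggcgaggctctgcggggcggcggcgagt

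The ROR element began 31 bases after the start in Arntl and 12 before it in Nfil3, and the 2 D-boxes of Per3 began 205 and 158 bases before it. Of 241 tested genes with a ROR element in the window, 112 were lower with a median of 0.0149 on the log2 scale, and 16 were lower and 6 higher without overlap, against 4.8% and 3.34% of all tested genes with a window. The E-box CACGTG stood in 7.15% of all windows, in 11.5% of those of tested genes and in 4 of the 16, those of Bhlhe41, Cry1, Per1 and Tef. A match describes the letters only.

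Of the 18 lists, the chaperones and folding enzymes of the ER lumen had the highest share of genes that were lower without overlap. Of 34 tested, 27 were lower in SCNx, and the median was -0.25 on the log2 scale against 0.00666 for all genes. For 12 of them (35.3%, against 4.60% of all genes) every SCNx library was below every Ctrl library, and for 0 every one was above. At an adjusted p under 0.25 there were 15 lower and 0 higher members (5.39% and 6.06% of all genes). At 0.05 there were 0 by edgeR and 12 lower ones by DESeq2 (1.77% of all genes). The median stayed between -0.285 and -0.206 when each library in turn was left out, but the 15 calls at 0.25 became 0 without Ctrl CT20, without Ctrl CT24 or without SCNx CT24, and 7 without SCNx CT44. In these bulk samples fewer cells that express a gene and less RNA per cell cannot be told apart.

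Calr (ENSMUSG00000003814), calreticulin, which binds calcium and folds glycoproteins, had 1552, 1877, 1645 and 1784 CPM in Ctrl and 1106, 1221, 1051 and 1267 CPM in SCNx (log2 fold change -0.56 ± 0.089, adjusted p = 0.0991). The lowest Ctrl library was above the highest SCNx library, and in both groups CT20 and CT44 were higher than CT0 and CT24. Hsp90b1 (ENSMUSG00000020048), the ER chaperone GRP94, had 1665, 2028, 1777 and 2005 CPM in Ctrl and 1259, 1306, 1205 and 1492 CPM in SCNx (log2 fold change -0.51 ± 0.096, adjusted p = 0.139). Here too no library overlapped. The disulphide isomerase Pdia3, which acts with calreticulin, had 879, 1035, 976 and 1009 CPM in Ctrl and 672, 708, 654 and 796 CPM in SCNx. Its relative Pdia6 had 356, 437, 387 and 439 CPM in Ctrl and 267, 283, 248 and 317 CPM in SCNx. Of the SCNx libraries, CT44 was the highest for each of these genes.

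Hspa5 (ENSMUSG00000026864), the ER chaperone BiP that also holds the stress sensors inactive, overlapped: it had 1596, 1993, 1704 and 2161 CPM in Ctrl and 1389.6, 1259, 1319.6 and 1812 CPM in SCNx (log2 fold change -0.37 ± 0.14, adjusted p = 0.258). SCNx CT44 reached the Ctrl range, and the other 3 SCNx libraries stayed below it. The same library was the highest SCNx value for Sdf2l1, a partner of BiP, with 59.9, 108, 82.1 and 112 CPM in Ctrl and 45.53, 46.5, 39.7 and 66.5 CPM in SCNx. Manf, a secreted ER protein, had 165, 263, 195 and 279.5 CPM in Ctrl and 142, 142, 132 and 223 CPM in SCNx. For both genes SCNx CT44 was above Ctrl CT0. Creld2, an ER stress protein, had 42.0, 70.3, 50.6 and 76.8 CPM in Ctrl and 36.3, 37.1, 37.2 and 65.6 CPM in SCNx. Of the co-chaperones of BiP, Dnajb11 had 160.0, 199, 169 and 198 CPM in Ctrl and 123, 119.7, 109.7 and 149 CPM in SCNx. Dnajc3, another one, had 521, 602, 545 and 547 CPM in Ctrl and 400.1, 480.0, 447 and 494 CPM in SCNx. The co-chaperones did not overlap between the groups, whereas Creld2 did.

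Other members without overlap were Canx (calnexin, log2 fold change -0.29 ± 0.063), the oxidase Ero1b (-0.43 ± 0.091), Creld1 (-0.39 ± 0.085), Fkbp2 (-0.38 ± 0.091), Erp29 (-0.28 ± 0.065) and Erp44 (-0.19 ± 0.063). The members that were not lower include Dnajb9 (0.06), P4hb (0.03) and Pdia5 (0.91). P4hb had 367, 258, 255 and 286 CPM in SCNx and Pdia5 3.93, 0.84, 0.968 and 1.44, each highest in SCNx CT0, the library in which the hepatocyte markers summed to 13900 CPM, and the part of liver RNA in these values was not tested. Without SCNx CT0 the median of the list was -0.224.

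**Figure D2:**
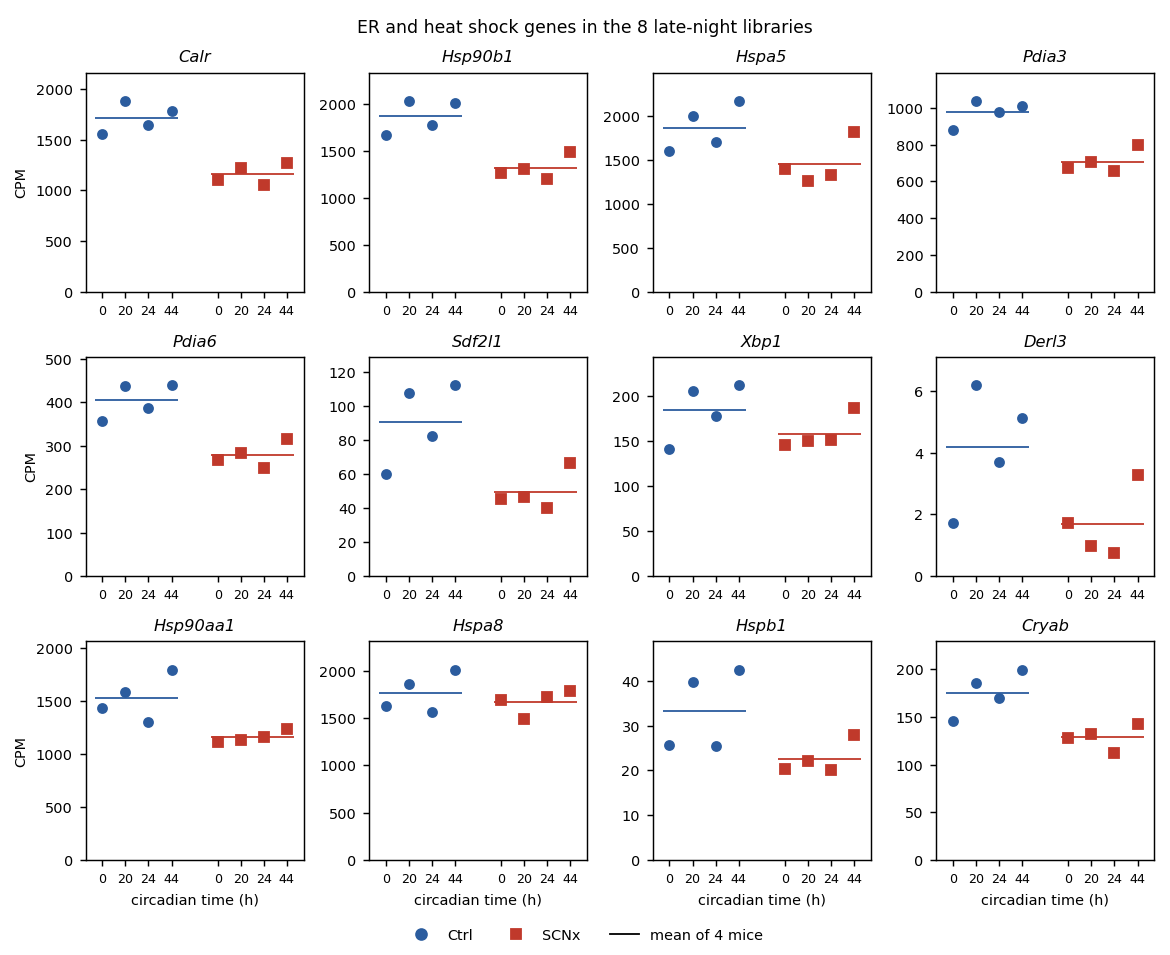
CPM (linear axis from 0) of 8 ER and 4 heat shock genes in the 8 late-night libraries, by circadian time in h, with Ctrl as blue circles, SCNx as red squares and a line at the mean of 4 mice. Calr, Hsp90b1, Pdia3, Pdia6, Hsp90aa1 and Cryab show no overlap between the groups, while SCNx CT44 reaches the Ctrl range for Hspa5, Sdf2l1, Xbp1 and Derl3.

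Several of these promoters hold the ER stress element, which is CCAAT, 9 free bases and CCACG and is known to be bound by ATF6 with NF-Y, and 4 are shown because they belong to the most abundant or most separated members. The element occurred in 39 of 32851 RefSeq windows (0.119%) and in 8 of the 30 ER chaperone genes with a window, which are Calr, Canx, Creld2, Dnajc3, Ero1b, Hsp90b1, Hspa5 and Pdia6. Capitals mark the element on either strand, Hsp90b1 holds 2, and none of those shown overlaps another motif searched for. The windows (GRCm38.p6) are chr8:84846882-84847181, minus strand for Calr, chr2:34771840-34772139, plus strand for Hspa5, chr10:86705395-86705694, minus strand for Hsp90b1 and chr12:17266339-17266638, plus strand for Pdia6.
Calr: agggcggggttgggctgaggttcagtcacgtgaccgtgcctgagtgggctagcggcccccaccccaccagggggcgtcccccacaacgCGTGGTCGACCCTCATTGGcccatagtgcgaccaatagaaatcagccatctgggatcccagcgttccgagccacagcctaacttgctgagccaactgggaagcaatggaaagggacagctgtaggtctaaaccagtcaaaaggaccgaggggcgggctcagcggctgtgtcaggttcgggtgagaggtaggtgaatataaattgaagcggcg
Hspa5: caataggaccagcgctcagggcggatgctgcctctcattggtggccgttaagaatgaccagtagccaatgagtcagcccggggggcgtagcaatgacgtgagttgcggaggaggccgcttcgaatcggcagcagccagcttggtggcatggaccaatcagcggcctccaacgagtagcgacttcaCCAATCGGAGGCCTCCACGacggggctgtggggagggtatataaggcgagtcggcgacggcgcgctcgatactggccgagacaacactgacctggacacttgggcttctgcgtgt
Hsp90b1: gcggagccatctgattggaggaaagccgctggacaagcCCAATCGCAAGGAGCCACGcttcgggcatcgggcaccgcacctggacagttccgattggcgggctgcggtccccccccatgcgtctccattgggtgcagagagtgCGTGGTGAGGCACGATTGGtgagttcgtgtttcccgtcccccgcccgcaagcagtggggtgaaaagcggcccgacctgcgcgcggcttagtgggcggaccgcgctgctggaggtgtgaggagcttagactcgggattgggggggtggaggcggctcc
Pdia6: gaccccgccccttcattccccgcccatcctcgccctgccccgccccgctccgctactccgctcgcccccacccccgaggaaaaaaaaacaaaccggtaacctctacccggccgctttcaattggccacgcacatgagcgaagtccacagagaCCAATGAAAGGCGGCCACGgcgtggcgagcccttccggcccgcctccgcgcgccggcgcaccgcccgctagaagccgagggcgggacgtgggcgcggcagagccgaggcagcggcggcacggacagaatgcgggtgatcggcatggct

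The element began 162 bases before the start in Calr, 65 in Hspa5, 98 in Pdia6, and 212 and 107 in Hsp90b1. Among all tested genes, 18 held the element in the window, of which 16 were lower and 7 lower without overlap, and their median was -0.285. Of all 10552 tested genes with a window, 48.7% were lower and 4.8% lower without overlap. Of the 18, 8 are members of the chaperone list, and Derl3 and Syvn1 belong to the list of ER-associated degradation. These counts are therefore not independent of those of the lists.

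Beyond the lumen, the lists of the secretory pathway leaned the same way in smaller steps. For ER translocation and N-glycosylation, 24 of 28 tested genes were lower (median -0.124), 9 of them without overlap (32.1%, against 4.60% of all genes), and 11 were lower at an adjusted p under 0.25 (5.39% of all) while 0 were higher. As for the chaperones, these 11 calls became 0 without Ctrl CT20, Ctrl CT24 or SCNx CT24, 4 without SCNx CT44, 6 without Ctrl CT44 and 7 without Ctrl CT0. Srprb, the beta subunit of the signal recognition particle receptor, had 55.5, 60.1, 57.1 and 55.2 CPM in Ctrl and 46.6, 47.3, 46.2 and 47.4 CPM in SCNx (log2 fold change -0.28 ± 0.044, adjusted p = 0.0991). The oligosaccharyltransferase subunits Rpn1 (-0.32 ± 0.056), Ddost (-0.26 ± 0.050), Magt1 (-0.38 ± 0.069) and Ostc (-0.34 ± 0.090) and the translocon gene Tram1 (-0.23 ± 0.043) did not overlap either. Sec61a1, the channel itself, had 85.6, 77.2, 78.2 and 78.9 CPM in Ctrl and 85.0, 72.5, 74.1 and 88.8 CPM in SCNx, so the groups overlapped.

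Of 26 genes of ER-associated degradation, 21 were lower (median -0.0797) and 3 did not overlap (11.5%, against 4.60% of all genes), which were Derl1 (-0.17 ± 0.047), Man1b1 (-0.21 ± 0.052) and Selenos (-0.26 ± 0.078). Derl3, another derlin, had 1.72, 6.18, 3.69 and 5.12 CPM in Ctrl and 1.72, 0.956, 0.738 and 3.28 CPM in SCNx (log2 fold change -1.32 ± 0.54, adjusted p = 0.277), with Ctrl CT0 inside the SCNx range. Among 19 sensors and factors of the unfolded protein response, 15 were lower, with a median of -0.0405. Xbp1, the transcription factor spliced by the sensor IRE1, had 141, 205, 178 and 212 CPM in Ctrl and 146, 149.6, 150.4 and 186 CPM in SCNx, highest in SCNx at CT44 and lowest in Ctrl at CT0. Wfs1 (-0.25 ± 0.076) and Atf6b (-0.15 ± 0.055) did not overlap (10.5% of the list, against 4.60% of all genes). The factors of the PERK branch, Atf4 (-0.05 ± 0.045) and Ddit3 (-0.04 ± 0.13), overlapped.

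Of 31 COPII and COPI genes, which carry cargo between ER and Golgi, 19 were lower with a median of -0.0278, and 5 did not overlap (16.1%, against 4.60% of all genes). The median lay between -0.0542 and -0.0148 when 1 library was left out (SCNx CT0 and Ctrl CT0) and was -0.0938 without SCNx CT0, SCNx CT44 and Ctrl CT44. The genes without overlap were the cargo receptors Lman2 and Surf4 and the p24 proteins Tmed2, Tmed3 and Tmed9. Lman2 (ENSMUSG00000021484), which binds high-mannose glycoproteins, had 240.1, 256, 232 and 255 CPM in Ctrl and 187, 198, 182 and 197 CPM in SCNx (log2 fold change -0.36 ± 0.048, adjusted p = 0.0976). Surf4 had 274, 279, 263 and 258 CPM in Ctrl and 223, 223, 210.5 and 239 CPM in SCNx (log2 fold change -0.26 ± 0.049). The 4 Ctrl values and the 4 SCNx values of each gene lay within a narrow range, and no library crossed over.

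The heat shock genes, which include mitochondrial chaperones such as Hspd1 beside the cytosolic ones, differed less. Of 33 heat shock genes, 24 were lower with a median of -0.0775, 4 did not overlap (12.1%, against 4.60% of all genes) and 6 were lower at an adjusted p under 0.25 (5.39% of all). Without Ctrl CT44 the median was -0.0192, with 19 of 33 lower, and without Ctrl CT24 it was -0.132, and the 6 calls became 0 without Ctrl CT20, Ctrl CT24, SCNx CT24 or SCNx CT44, 3 without Ctrl CT0 and 2 without Ctrl CT44. Hsp90aa1 (ENSMUSG00000021270), the inducible HSP90, had 1437, 1590.2, 1300.1 and 1799 CPM in Ctrl and 1119, 1136, 1166 and 1239 CPM in SCNx (log2 fold change -0.40 ± 0.10, adjusted p = 0.2). Cryab, a small heat shock protein, had 145, 186, 169 and 199 CPM in Ctrl and 127, 132, 112 and 143 CPM in SCNx. Hspb1, another one, had 25.7, 39.8, 25.4 and 42.51 CPM in Ctrl and 20.4, 22.2, 20.1 and 28.0 CPM in SCNx. Both were higher in Ctrl at CT20 and CT44 than at CT0 and CT24, and Hspb1 overlapped. Bag3 (-0.18 ± 0.054) and Hspa4 (-0.13 ± 0.043) were lower without overlap. Hspa8, the constitutive HSP70, had 1633, 1858, 1564 and 2014 CPM in Ctrl and 1691, 1494, 1726 and 1788 CPM in SCNx. The inducible pair Hspa1a (0.08 ± 0.22) and Hspa1b (-0.28 ± 0.29), near-identical copies whose reads can be split between them, overlapped, as Hspa8 did. The median of the list was -0.183 at CT20 and CT44 and -0.00248 at CT0 and CT24. The heat shock element, searched as GAA, TTC and GAA with 2 free bases between them or as its mirror form, stood in 0.603% of all windows and in 5 of 25 heat shock genes with a window, those of Chordc1, Dnajb6, Hspd1, Hspe1 and Hsph1.

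The CCT chaperonin, which folds actin and tubulin, had a median of -0.0176 over 8 subunits, with 0 beyond the Ctrl range, and the sign of this median turned to 0.00814 without Ctrl CT44. The 31 proteasome genes had a median of 0.0334, which turned to -0.0164 without SCNx CT0. The cold-inducible RNA-binding genes, which go with lower body temperature, had higher means in SCNx. Rbm3 had 48.4, 46.4, 48.9 and 41.1 CPM in Ctrl and 78.8, 40.7, 77.8 and 96.6 CPM in SCNx. Cirbp had 18.3, 14.7, 21.2 and 10.9 CPM in Ctrl and 30.4, 14.7, 20.0 and 35.04 CPM in SCNx. SCNx CT20 lay within or below the Ctrl range for both. The difference for Cirbp turned to -0.064 without SCNx CT0, SCNx CT44 and Ctrl CT44.

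Of 19 glucocorticoid targets, which follow the adrenal rhythm, 15 were higher with a median of 0.122. Without overlap, 0 were higher (3.52% of all genes) and 1 was lower (5.26%, near the 4.60% of all genes). That gene was Cdkn1a (ENSMUSG00000023067), the cell cycle inhibitor p21, with 28.3, 24.4, 30.6 and 28.1 CPM in Ctrl and 18.4, 16.1, 13.6 and 18.2 CPM in SCNx (log2 fold change -0.75 ± 0.11, adjusted p = 0.0979). Tsc22d3, also called Gilz, had 16.6, 26.0, 14.98 and 31.1 CPM in Ctrl and 23.8, 22.1, 19.9 and 16.8 CPM in SCNx. Ctrl was higher at CT20 and CT44 than at CT0 and CT24, and SCNx lay between these levels. Fkbp5, a co-chaperone of the receptor, had 9.07, 7.25, 7.73 and 11.3 CPM in Ctrl and 15.6, 10.9, 12.2 and 9.92 CPM in SCNx. Errfi1 and Sult1a1 were at 59.0 and 96.5 CPM in SCNx CT0, where liver markers were high, and at most 10.9 and 31.1 in the other libraries. Per1, a period gene that glucocorticoids also induce, had 32.9, 34.5, 26.6 and 40.0 CPM in Ctrl and 35.5, 43.2, 36.7 and 30.4 CPM in SCNx. The core AGAACA of the glucocorticoid response element stood in 19% of all windows and in 3 of 17 target genes, those of Sgk1, Sult1a1 and Tsc22d3. Of 19 immediate early genes, 12 were higher, with a median of 0.201. Klf6, Junb and Klf2 were higher without overlap (0.33 ± 0.094, 0.36 ± 0.12 and 0.46 ± 0.17), which is 15.8% of the list against 3.52% of all genes. Ier5 was lower without overlap (-0.40 ± 0.097), which is 5.26% and near the 4.60% of all genes.

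Among genes of epithelial ion and solute transport, 27 of 43 were lower with a median of -0.0445, 7 without overlap (16.3%, against 4.60% of all genes), and 8 were lower at an adjusted p under 0.25 (5.39% of all). These 8 calls became 0 without Ctrl CT20 or Ctrl CT24, 1 without SCNx CT24 or SCNx CT44, 3 without Ctrl CT0 and 2 with circadian time as a block. Kcne2 (ENSMUSG00000039672), a potassium channel subunit of the apical membrane, had 1121, 1129, 1086 and 1071 CPM in Ctrl and 733, 975, 816 and 761 CPM in SCNx (log2 fold change -0.42 ± 0.091, adjusted p = 0.156). Trpv4 (ENSMUSG00000014158), a calcium channel that senses swelling and regulates fluid secretion, had 412, 417, 434 and 418 CPM in Ctrl and 319, 329, 331 and 355 CPM in SCNx (log2 fold change -0.33 ± 0.046, adjusted p = 0.0976). Slc22a8, the organic anion transporter OAT3, had 71.0, 79.0, 70.2 and 71.8 CPM in Ctrl and 52.5, 34.1, 56.9 and 66.0 CPM in SCNx, and the lowest value was SCNx CT20. The thyroxine transporter Slco1c1 (-0.28 ± 0.054), the tight junction gene Cldn2 (-0.23 ± 0.060), Kcnj13 (-0.21 ± 0.060) and Car14 (-0.16 ± 0.045) were lower without overlap.

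Other genes of fluid secretion overlapped. Slc12a2, the cotransporter NKCC1, had 1406, 1193, 1154 and 1152 CPM in Ctrl and 1070.1, 1256, 1446 and 1401 CPM in SCNx. Aqp1, the apical water channel, had 466, 349, 425 and 299.6 CPM in Ctrl and 459, 396, 437 and 474 CPM in SCNx. For both of them some SCNx libraries were above some Ctrl libraries. The median of the list was 0.0887 at CT20 and CT44 and -0.161 at CT0 and CT24, and 0.0023 without Ctrl CT0. Of 14 secreted products, 10 were lower with a median of -0.107. Ttr, the thyroxine carrier of cerebrospinal fluid, had 88706, 93528, 93322 and 90494 CPM in Ctrl and 80009, 90586, 78372 and 84199 CPM in SCNx. Igfbp2, a binding protein of insulin-like growth factors, had 1602, 1568, 1590.0 and 1415 CPM in Ctrl and 1369, 1419, 1207 and 1274 CPM in SCNx. Both overlapped. Cp, ceruloplasmin, had 83.5, 89.5, 83.5 and 89.9 CPM in Ctrl and 179, 94.0, 129.7 and 105 CPM in SCNx and was higher without overlap. Trf, transferrin, had 288, 317, 286 and 314 CPM in Ctrl and 1944, 283, 335 and 329 CPM in SCNx. Both were highest in SCNx CT0, where hepatocyte markers were high, and both are also liver products.

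The 16 receptors and WNT genes that the authors name were chosen by them on these libraries, so their counts are no independent evidence. Of these, 7 were lower and 9 higher with a median of 0.0457. Nfatc2, a factor of calcium signalling, had 28.8, 30.3, 26.8 and 30.3 CPM in Ctrl and 30.5, 37.4, 32.1 and 39.7 CPM in SCNx. It was the only member without overlap (6.25%, against 3.52% of all genes). Jag1, a Notch ligand, had 12.7, 10.8, 10.7 and 11.3 CPM in Ctrl and 12.3, 14.1, 15.5 and 14.5 CPM in SCNx. Notch4, an endothelial receptor, had 5.88, 6.25, 5.47 and 6.98 CPM in Ctrl and 9.57, 5.95, 11.02 and 8.50 CPM in SCNx.

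Genes of innate immunity were mostly higher in SCNx. Of 22 interferon-stimulated genes, 21 were higher with a median of 0.43, 4 of them without overlap (18.2%, against 3.52% of all genes), and 5 were higher at an adjusted p under 0.25 (6.06% of all), which became 0 without Ctrl CT20, Ctrl CT24 or SCNx CT24 and 3 without Ctrl CT0. Ifit2 had 2.81, 2.76, 2.98 and 2.76 CPM in Ctrl and 4.57, 4.66, 5.14 and 3.74 CPM in SCNx (log2 fold change 0.68 ± 0.12, adjusted p = 0.132). Rsad2, viperin, had 3.19, 3.74, 3.69 and 3.51 CPM in Ctrl and 6.99, 5.01, 6.43 and 9.55 CPM in SCNx. Ifih1, the RNA sensor MDA5, had 24.2, 25.1, 24.5 and 20.6 CPM in Ctrl and 29.6, 29.02, 33.4 and 29.7 CPM in SCNx. These did not overlap, nor did Ddx58, the sensor RIG-I. Irf7, a factor that amplifies interferon, had 3.54, 3.91, 3.04 and 2.76 CPM in Ctrl and 8.11, 10.6, 5.49 and 3.72 CPM in SCNx. SCNx CT20 held the highest value of 12 of the 22 genes and SCNx CT24 of 7, and SCNx CT44 held the lowest value of 7, so the SCNx libraries differed among themselves.

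Of 11 genes of MHC class I presentation, 10 were higher with a median of 0.584, and 1, H2-K1, did not overlap (9.09%, against 3.52% of all genes). It had 69.2, 72.1, 68.7 and 71.0 CPM in Ctrl and 177, 97.6, 85.2 and 73.1 CPM in SCNx. SCNx CT0 was the highest library for 6 of the 11, and the median without it was 0.285. The proteasome subunit Psmb8 had 3.14, 2.99, 3.12 and 2.71 CPM in Ctrl and 8.11, 5.598, 5.12 and 3.1 CPM in SCNx. Of the non-classical genes, which are outside the lists and were picked after their values were seen, H2-Q6 had 0.822, 0.946, 0.939 and 1.53 CPM in Ctrl and 5.53, 3.94, 3.92 and 2.39 CPM in SCNx. H2-Q7 had 1.49, 1.37, 1.08 and 1.71 CPM in Ctrl and 6.92, 4.55, 3.76 and 2.69 CPM in SCNx. They share much of their sequence with other H2 genes, so reads can be split between them and the values are uncertain.

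Markers of macrophages, endothelium and mural cells had higher means in SCNx. The markers tested for neurons (2 of 12) and oligodendrocytes (3 of 5) had lower ones. The sums of these 2 lists were highest in Ctrl CT44, at 49.7 and 133 CPM, against at most 19.7 and 99.4 in the other libraries. Mbp and Mobp changed sign, to 0.045 and 1.32, when 1 library was left out. The interferon median, as log2 CPM less each gene's mean, was highest in SCNx CT20 (0.397) and lowest among SCNx in CT44 (-0.195). Among the SCNx libraries, the endothelial and mural sums were lowest in CT20, and the macrophage sum was highest in CT0 and lowest in CT24. All 8 macrophage markers were higher in SCNx, with sums of 81.2, 84.3, 67.3 and 100.6 CPM in Ctrl and 146, 112, 84.5 and 109 in SCNx. Of the 8, 3 did not overlap (3.52% of all genes), which were Ptprc, Csf1r and C1qb. Ptprc, the common leukocyte antigen CD45, had 2.39, 3.11, 2.61 and 3.04 CPM in Ctrl and 4.67, 7.49, 4.26 and 11.1 CPM in SCNx. The 5 endothelial markers summed to 142, 147, 119 and 156 CPM in Ctrl and 206, 120, 234 and 180 in SCNx, and the 5 mural markers to 179, 181, 146 and 183 and to 248, 164, 330 and 191. Fibroblast markers, of which 3 of 6 were higher, summed to between 434 and 470 CPM in Ctrl and between 501 and 520 in SCNx. The part of these cells in the differences of the interferon, MHC and other lists was not tested.

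Sterol and fatty acid synthesis genes had a median of 0.0302, with 0 of 25 genes free of overlap, and spread widely among the SCNx libraries. The median turned to -0.166, with 22 of 25 lower, without SCNx CT0, and was 0.189 without SCNx CT20. SCNx CT0 held the highest value of 19 of 25 genes and SCNx CT20 the lowest of 20. Idi1, an enzyme of the isoprenoid branch, had 32.7, 41.1, 34.7 and 46.7 CPM in Ctrl and 76.3, 23.2, 45.96 and 34.5 CPM in SCNx. Cyp51, lanosterol demethylase, had 44.5, 47.4, 41.8 and 50.6 CPM in Ctrl and 66.2, 26.1, 52.6 and 36.5 CPM in SCNx. For both genes SCNx CT20 was below and SCNx CT0 above all Ctrl libraries. At CT20 and CT44 the median was -0.346, with 24 of 25 lower, and at CT0 and CT24 it was 0.422, with 3 lower. For the difference between the phases, 17 of the 25 had an unadjusted p under 0.05 (68%, against 5.09% of all genes, edgeR). At an adjusted p under 0.05 there were 0. Liver is also a site of sterol synthesis, hepatocyte markers were at 13900 CPM in SCNx CT0, and their part in this pattern was not tested.

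**Figure D3:**
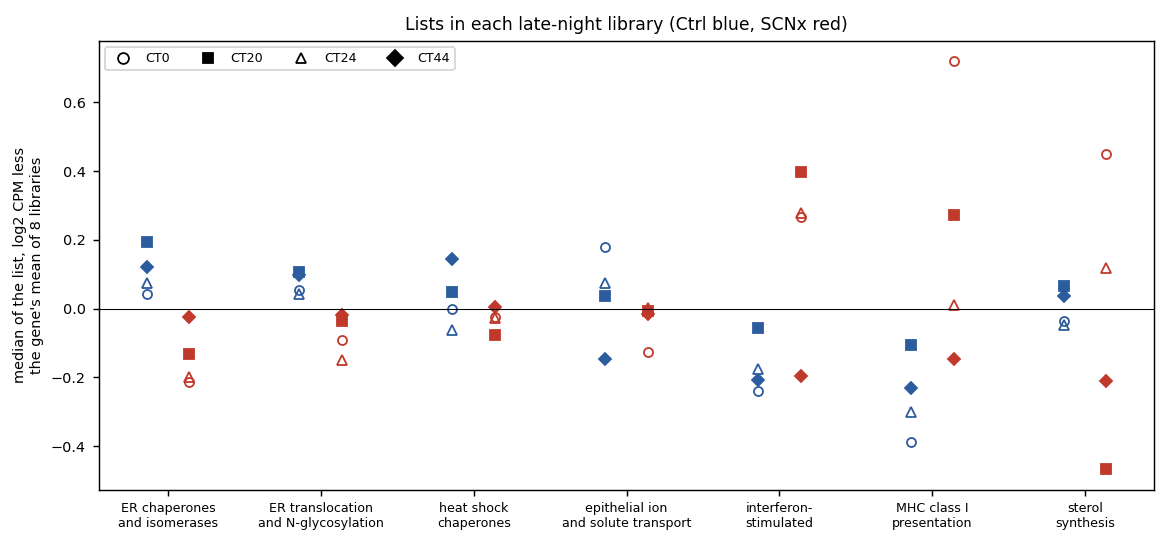
Median over the genes of 7 lists of log2 CPM less the mean of the gene over the 8 libraries (y axis, log2 units), with Ctrl in blue and SCNx in red, filled symbols for CT20 and CT44 and open ones for CT0 and CT24. Every SCNx library lies below every Ctrl library for ER chaperones and for translocation and N-glycosylation, while SCNx CT0 and SCNx CT20 lie at the ends for sterol synthesis.

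Over all genes, the leading 10 by p on either side began, among the higher ones, with Nr1d2 and Sult1c2 (ENSMUSG00000023122), a sulphotransferase with 3.04, 2.47, 3.39 and 3.39 CPM in Ctrl and 6.70, 6.76, 7.31 and 7.34 CPM in SCNx (log2 fold change 1.19 ± 0.12, adjusted p = 0.061). Mdm4, an inhibitor of p53, had 52.3, 51.9, 51.4 and 52.2 CPM in Ctrl and 65.7, 67.6, 75.03 and 66.5 CPM in SCNx. Gbp4, a guanylate-binding protein induced by interferon, had 1.69, 1.42, 2.18 and 1.53 CPM in Ctrl and 3.90, 4.06, 4.68 and 3.72 CPM in SCNx. The others on this side were Per3, Dbp, Lca5l (0.60 ± 0.087), the scaffold Ahnak (0.63 ± 0.095), the calcium channel Itpr3 (0.76 ± 0.12) and Dock8 (0.63 ± 0.099). On the lower side, Mfsd12 (ENSMUSG00000034854), which imports cysteine into lysosomes, had 39.7, 38.4, 38.5 and 38.8 CPM in Ctrl and 30.8, 29.2, 30.6 and 28.8 CPM in SCNx (log2 fold change -0.38 ± 0.042, adjusted p = 0.0695). Pcsk2, a prohormone convertase, had 151, 130.2, 128 and 132 CPM in Ctrl and 85.2, 90.3, 102 and 83.1 CPM in SCNx, highest in Ctrl CT0. Mmachc, which processes vitamin B12 (log2 fold change -0.31 ± 0.041), Ikzf4 (-0.60 ± 0.083), Pea15a (-0.33 ± 0.046), Chpf (-0.47 ± 0.067) and Vopp1 (-0.31 ± 0.047) completed the group beside Lman2, Trpv4 and Cdkn1a. These 20 genes were chosen by their p, so their separation describes the choice.

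To see whether the differences belonged to late night, they were set against those of the other 16 libraries of the groups, 8 in subjective day and 8 in early night, in a fit of 6 groups of 4. Again Nr1d2 passed 0.05 (1 of 13789, 0.00725%, edgeR), and its log2 fold change in late night exceeded the mean of the other windows by 2.01 ± 0.23 (adjusted p = 0.000383). Its mean CPM was 158 ± 35.1 in Ctrl and 137 ± 39.4 in SCNx in subjective day, and 171 ± 41.2 and 97.8 ± 17.1 in early night (SD, n = 4). Ctrl was thus far lower in late night than in the other windows, and SCNx was between 97.8 and 137 in all 3. DESeq2 called 94 genes in this test, and against early night alone edgeR called 336 (2.44%), of which 255 were higher in late night.

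The genes with the smallest p beside Nr1d2 were Mir22hg (1.01 ± 0.18, adjusted p = 0.0631), Zranb1 (0.35 ± 0.063), Per3 (1.63 ± 0.31) and Ifih1 (0.41 ± 0.080) on the higher side. On the lower side they were Lrp8os3 (-0.96 ± 0.16, adjusted p = 0.0631), an antisense RNA, Cdkn1a (-0.87 ± 0.18), Cables1 (-0.85 ± 0.18), Grm8 (-0.57 ± 0.12) and Nfil3 (-1.21 ± 0.27). Cdkn1a averaged 18.2 ± 4.22 CPM in Ctrl and 16.9 ± 2.79 in SCNx in subjective day, and 14.6 ± 1.87 and 18.8 ± 1.55 in early night. For Calr the means were 1055 ± 156 in Ctrl and 1037 ± 95.4 in SCNx in subjective day, and 1064 ± 383 and 1390.2 ± 131 in early night, and its difference between late night and the other windows was -0.73 ± 0.21 (adjusted p = 0.155).

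Over the lists, the ER chaperones had a median log2 fold change of -0.0418 in subjective day and 0.0444 in early night, against -0.25 in late night. For 25 of the 34 genes the late-night value was below the mean of the other windows, as it was for 6537 of all 13789 genes. The window was chosen because ER and heat shock genes are high in Ctrl at these hours. Their lower values in this window against the others are therefore no independent evidence. Heat shock genes had medians of 0.0412 and 0.0618 in subjective day and early night. Interferon-stimulated genes had medians of 0.0502 and -0.142, and all 22 were higher in late night than in the mean of the others. Epithelial transport genes were lower in subjective day too, with a median of -0.146. The clock list had medians of 0.0161 in subjective day and -0.508 in early night.

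**Figure D4:**
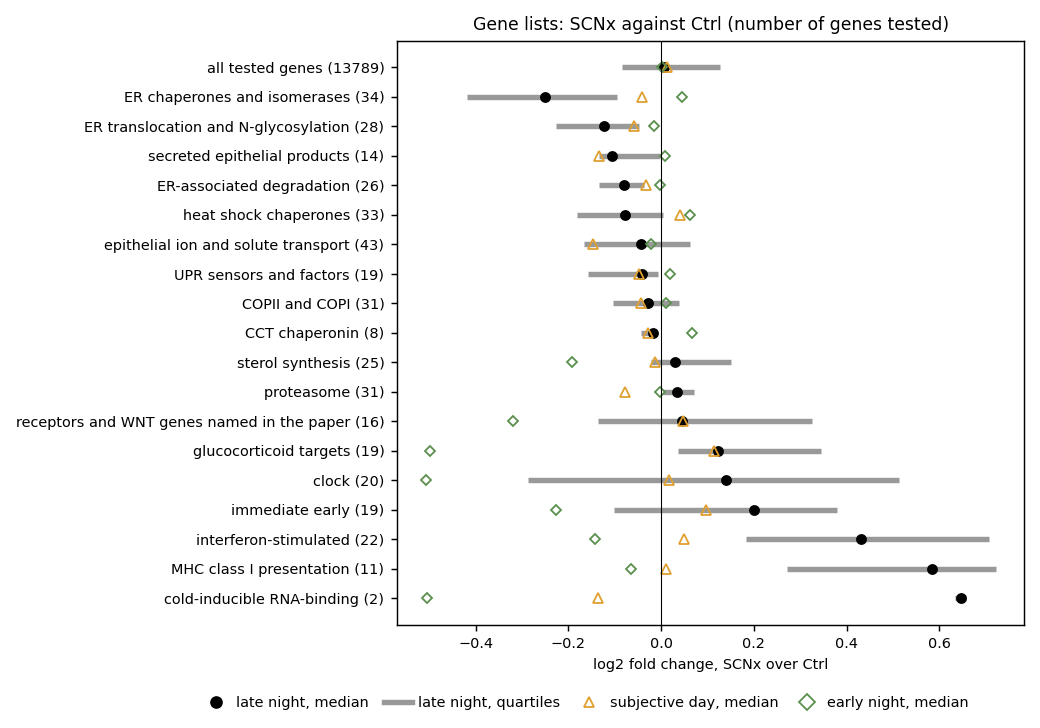
Median log2 fold change of SCNx over Ctrl (x axis) for all tested genes and 18 lists (y axis, number of genes in parentheses), as black dots with grey bars from the lower to the upper quartile in late night, triangles in subjective day and diamonds in early night. The ER chaperones lie furthest to the left in late night at -0.25, and their medians in the other windows lie at -0.0418 and 0.0444.

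**Figure D5:**
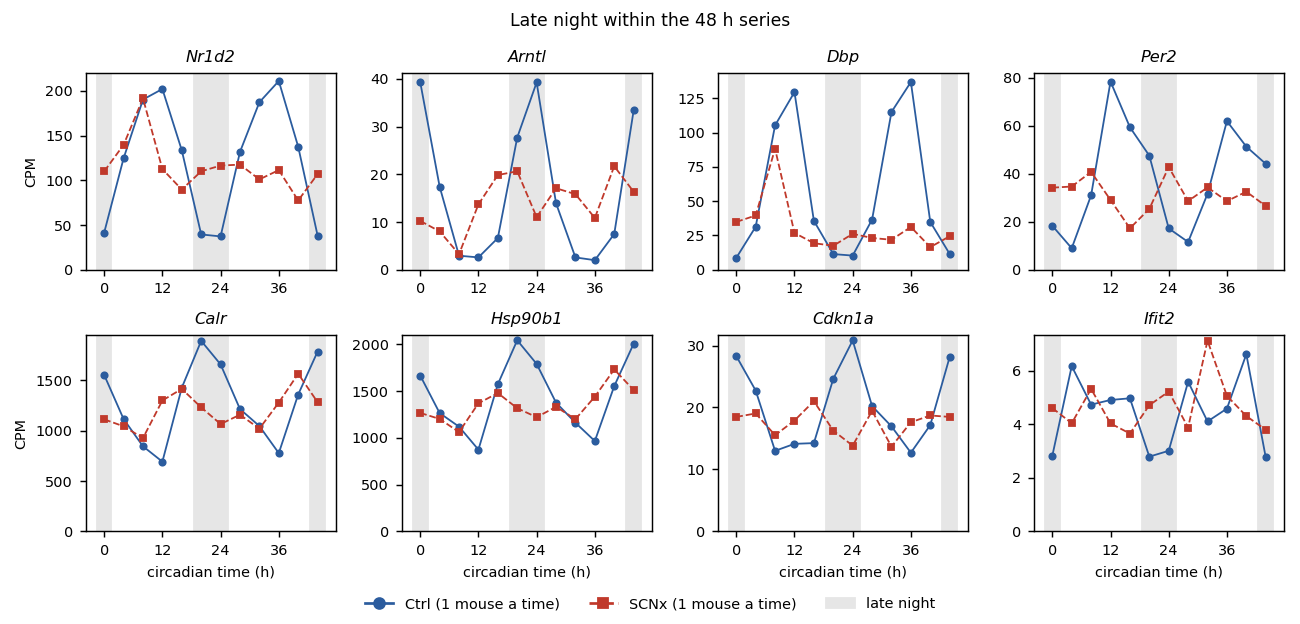
CPM (linear axis from 0) of 8 genes against circadian time in h over the whole series, with 1 mouse a time, Ctrl as a solid blue line, SCNx as a dashed red line and late night shaded. In Ctrl, the shaded libraries of Nr1d2 and Dbp are below, and those of Arntl, Calr and Hsp90b1 above, all the other Ctrl libraries.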

How the data were processed

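RNA of the choroid plexus was sequenced single-end on an Illumina instrument after rRNA depletion and enrichment of polyA RNA, per the study's methods. The authors used nf-core/rnaseq with GRCm39 as the genome, and the submitters' processing notes name STAR, Salmon 1.9.0, SAMtools 1.16.1, StringTie 2.2.1 and cutadapt 3.4. The values deposited are Salmon's expected counts (estimated counts) per gene, not scaled to length or library size, and they were rounded to whole numbers here. Such counts split reads between near-identical genes by estimate.

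Groups and times came from the sample labels. Each time of a group is 1 mouse, so the 4 libraries of a group are separate animals. Genes with a mean of at least 1 CPM in the 8 libraries were tested (13789 of 55416). The tests were run with edgeR 4.0.16 in R 4.3.3 (TMM, quasi-likelihood F test, Benjamini-Hochberg adjustment, threshold 0.05), first SCNx against Ctrl in late night, then the same difference against the mean of the other windows over 24 libraries, then the difference between CT20 or CT44 and CT0 or CT24. The code was tested on simulated data. Library totals were 38751162 to 47335226 counts. The alternatives were DESeq2 1.42.0 and limma 3.58.1 (prior count 1), robust shrinkage, other size factors and minimum levels, each library left out, a term for time or phase, and a spread from 24 libraries. Tables and figures were made with Python 3.11.15, pandas 2.3.3 and matplotlib 3.10.9. The libraries of knockout mice, made with another kit, were not used here.

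The window, the gene lists and the tests were chosen with earlier results of these data known, and genes named in the paper were chosen by its authors on these libraries. Genes were named by rule. They are the members of 5 lists (clock, ER, heat shock, glucocorticoid, transport) that passed the test, at most 10 a list; the genes the paper names; the leading 10 by p in each direction; at most 4 of every other list by p; and the leading 5 in each direction against the other windows. After values were seen, the first part was widened to an adjusted p under 0.25, and clock genes and list members without overlap were added. Promoter windows are those of RefSeq on GRCm38.p6, read by symbol and searched on both strands. Some genes that these rules name are not reported here.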

Additional observations from a re-analysis of the deposited data

Results flagged for a closer look

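The log2 fold change of Nr1d2 in late night differed from the mean of the other windows by 2.01 in edgeR's quasi-likelihood test, as the report gives it. In addition, within the groups of 4 libraries, the highest or lowest library stood apart from the other 3 by Dixon's criterion in 33 of 366 groups tested. The criterion flags about 1 in 20 independent groups of normal values. These groups are not independent, since marker sums repeat their genes, and each group spans both phases. The 33 can therefore not be set against that rate. Of the 33 there were 8 in SCNx CT0 and 10 in SCNx CT44.

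In SCNx CT0 these were liver transcripts and others, with Alb at 8066 CPM, Cyp2e1 at 466, Cyp3a11 at 379, Hp at 144, Trf at 1944 and Rarres2 at 48.1, and with marker sums of 13900 for hepatocytes and 49.6 for ependymal cells. In SCNx CT44 they were the red cell genes Hba-a1 at 2719 CPM, Hbb-bs at 2059, Hba-a2 at 527 and Alas2 at 96.6, with a red cell sum of 6552 and a granulocyte sum of 9.19. Xbp1 stood at 186 CPM in the same library, and the myelin genes Mbp at 77.7 and Mobp at 7.57, with an oligodendrocyte sum of 99.4.

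Ctrl CT44 stood apart with Mbp at 84.4 CPM, Mobp at 14.6, Snap25 at 26.9 and an oligodendrocyte sum of 133. Ctrl CT24 was lowest for Kdr at 44.0 CPM and for the mural cell sum at 146. Ctrl CT20 was highest for Erp29 at 45.7 CPM, for Alb at 1.82 and for the hepatocyte sum at 7.47, and Ctrl CT0 for Pcsk2 at 151. SCNx CT24 was lowest for Erp29 at 31.6 CPM and highest for Ifih1 at 33.4 and Ddx58 at 32.8. SCNx CT20 stood apart for Klf2 at 4.85 CPM and Otx2 at 420.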

How the results depend on the processing

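The call of Nr1d2 was kept in all 19 alternatives, with log2 fold changes between 1.468 and 1.525. The number of calls at 0.05 in late night, 1 in the test as reported, was 493 with DESeq2, 2 with limma, 2 with robust shrinkage, 2 at a minimum of 5 CPM, 2 with circadian time as a block, 14 with the spread of all 24 libraries, 3 without SCNx CT0, SCNx CT44 and Ctrl CT44 (chosen after seeing the data) and 1 without each library in turn. At an adjusted p under 0.25 it was 1578, and then 925 with limma, 901 with robust shrinkage, 54 with no minimum level, 1040 at a minimum of 5 CPM, 393 with the time block, 781 without those 3 libraries, and between 2 (without Ctrl CT20) and 2309 (without SCNx CT20) when 1 library was left out, with 6 without Ctrl CT24, 24 without SCNx CT24, 82 without SCNx CT44, 399 without Ctrl CT0 and 660 without Ctrl CT44. Against the other windows, 1 call became 94 with DESeq2, 2 with robust shrinkage, 2 at a minimum of 0.5 CPM, 336 against early night alone and 1 to 3 without 1 library. Between the phases, 0 calls became 143 with DESeq2, 1 with limma, 1 with robust shrinkage, 25 with no minimum level and 0 to 587 without 1 library. The causes were not tested. Between the phases, leaving out 1 library left 1 mouse at that phase of its group, so no conclusion is drawn from those counts. The highest of them came without SCNx CT24, where the lone mouse was SCNx CT0, the library with the liver transcripts. The labels give no replicate numbers, and mice of the groups share a circadian time only, which the time block uses as pairing (2 and 393 calls).

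Of 170 named genes, 158 kept their sign in every alternative. Without SCNx CT0, SCNx CT44 and Ctrl CT44 the sign turned for Cirbp (-0.064), Alas2 (-0.77), Hba-a1 (-0.95), Hba-a2 (-0.99), Hbb-bs (-0.86), Rarres2 (-0.18), Clock (0.039) and Tsc22d3 (0.13). Leaving out 1 library, the log2 fold change ranged from -0.023 to 2.27 for Alas2, -0.15 to 2.27 for Hba-a1, -0.067 to 2.21 for Hba-a2, -0.063 to 2.11 for Hbb-bs, -0.11 to 1.32 for Rarres2, -0.12 to 0.32 for Aqp4, -0.14 to 0.0070 for Clock, -0.27 to 0.045 for Mbp, -2.22 to 1.32 for Mobp, -0.20 to 0.27 for Per2 (-0.018 without SCNx CT0) and -0.25 to 0.11 for Tsc22d3. With 1 mouse a time, small differences rest on single animals, and genes near 1 CPM are measured least precisely.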
